A study of Mus musculus with 8 samples.

Results

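Axon guidance ligands and their receptors were examined in embryonic fibroblasts from Lats2-/- mice and Lats2+/+ littermates. The genes were taken by name from the array: semaphorins (Sema), plexins (Plxn), neuropilins (Nrp1 and Nrp2), Slits, Robos, netrins (Ntn), Unc5 receptors, A and B ephrins (Efna, Efnb) and their Eph receptors (Epha, Ephb). This gave 134 of the 41174 gene probes, for 76 genes. Of these, 97 probes for 61 genes exceeded background well in 1 or more of the 6 RNA extracts, and these were tested among 25347 probes for 16611 genes. The name rule also took the Slitrk proteins, netrin-G, Unc50 and Unc5cl, which share letters with the guidance genes. They were given families of their own but are included in all counts, shares, medians and correlations of guidance genes below. Of them, Slitrk5, Slitrk6, Ntng1 and Unc50 are among the 61 tested genes.

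Guidance cues were named for steering axons, but the same proteins act between many other cells. Semaphorins bind plexins, often with a neuropilin as co-receptor, Slits bind Robo receptors, netrins bind DCC or Unc5 receptors, and ephrins bind Eph receptor tyrosine kinases on neighbouring cells. The receptors act on small GTPases and the actin cytoskeleton, and in fibroblasts and their precursors they take part in migration, in repulsion on contact and in boundaries between tissues. LATS2 is a kinase of the Hippo pathway that restrains the coactivators YAP and TAZ, whose DNA-binding partners are the TEAD factors.

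The study compared littermates from 3 litters, here called by their numbers 112, 116 and 121, with 1 Lats2-/- and 1 Lats2+/+ extract from each. All animals were of the strain C57BL/6J, the cells were grown in DMEM with 10% inactivated fetal bovine serum, and no treatment was given. Each of the 8 arrays held both extracts of a litter, with the dyes swapped between arrays, 2 arrays each for litters 112 and 116 and 4 for litter 121. Each extract came from 1 named clone (112-C, 116-D and 121-E for Lats2-/-, 112-K, 116-H and 121-C for Lats2+/+), and neither the age of the embryos nor the part of Lats2 that was deleted is given in the sources used here. The ratio of a litter is the log2 signal of its Lats2-/- extract minus that of its Lats2+/+ extract, and n is 3 litters.

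On each array 52.9% to 61.3% of the probes exceeded background well in a given extract, and no gene spot was saturated. Of the 4 Lats2 probes, the one farthest upstream read -1.33, -1.05 and -0.56 as log2 ratios, in the order of litters 112, 116, 121 (limma p 0.00751, or 0.755 after adjustment), lower in each litter as labelled. The other 3 probes, downstream of it, read -0.70 to -0.18 in the first pair of litters but 0.80 to 1.17 in litter 121, where the extract labelled Lats2-/- was the higher one. Directions here therefore rest on the labels. All 9 fibroblast markers exceeded background in every extract, except Pdgfra in the Lats2-/- cells of litter 121, and their summed signal ranged from 220300 to 458900 in Lats2-/- and from 190800 to 410600 in Lats2+/+ extracts. Litters 112 and 116 shared a slide and litter 121 had the other, so that slide and litter 121 cannot be told apart.

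Over the 3 litters, Sema3e, Epha4, Plxna1 and Plxna3 were higher in Lats2-/- cells in every litter at an unadjusted p under 0.05, and 1 of the Sema5a probes was lower. No guidance probe passed the adjusted threshold of 0.05 in limma, nor did any of the 25347 tested probes (0%). The smallest adjusted p was 0.651. Over the 8 arrays in place of the 3 litters, the smallest adjusted p of a guidance probe was 0.00193 with a dye term and litter as a random block, where Epha4, Sema3e and Plxna1 passed the threshold among the genes named here, and 0.00122 with slide as a random block, where Epha4, Plxna1 and Sema5a did. These arrays are dye swaps and repeats of 3 littermate pairs and not replicates, so that those p-values are too small. At an unadjusted p under 0.05, 7 of the 97 guidance probes (4 genes) were higher, where the share of all tested probes was 3.35%, and 1 was lower, where that share was 3.18%. With a mean difference of at least 2-fold as well, 3 of the 97 guidance probes, for Sema3e and Epha4, were higher (share of all tested probes 0.556%) and 0 were lower (0.174%). By the brightest tested probe of each gene, 4 of 61 guidance genes were higher at that p (share of all tested genes 3.86%) and 0 were lower (3.29%). The directions were mixed: 34 of the 61 genes had a mean above 0 and 27 below, a share above 0 of 55.7% beside 53.6% over all tested genes, and a median over genes of the mean log2 ratio of 0.04 beside 0.01. All p-values below are limma's, two-sided and unadjusted where not called adjusted, and every guidance probe with an unadjusted p under 0.05 had an adjusted p between 0.651 and 0.755.

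**Figure D1:**
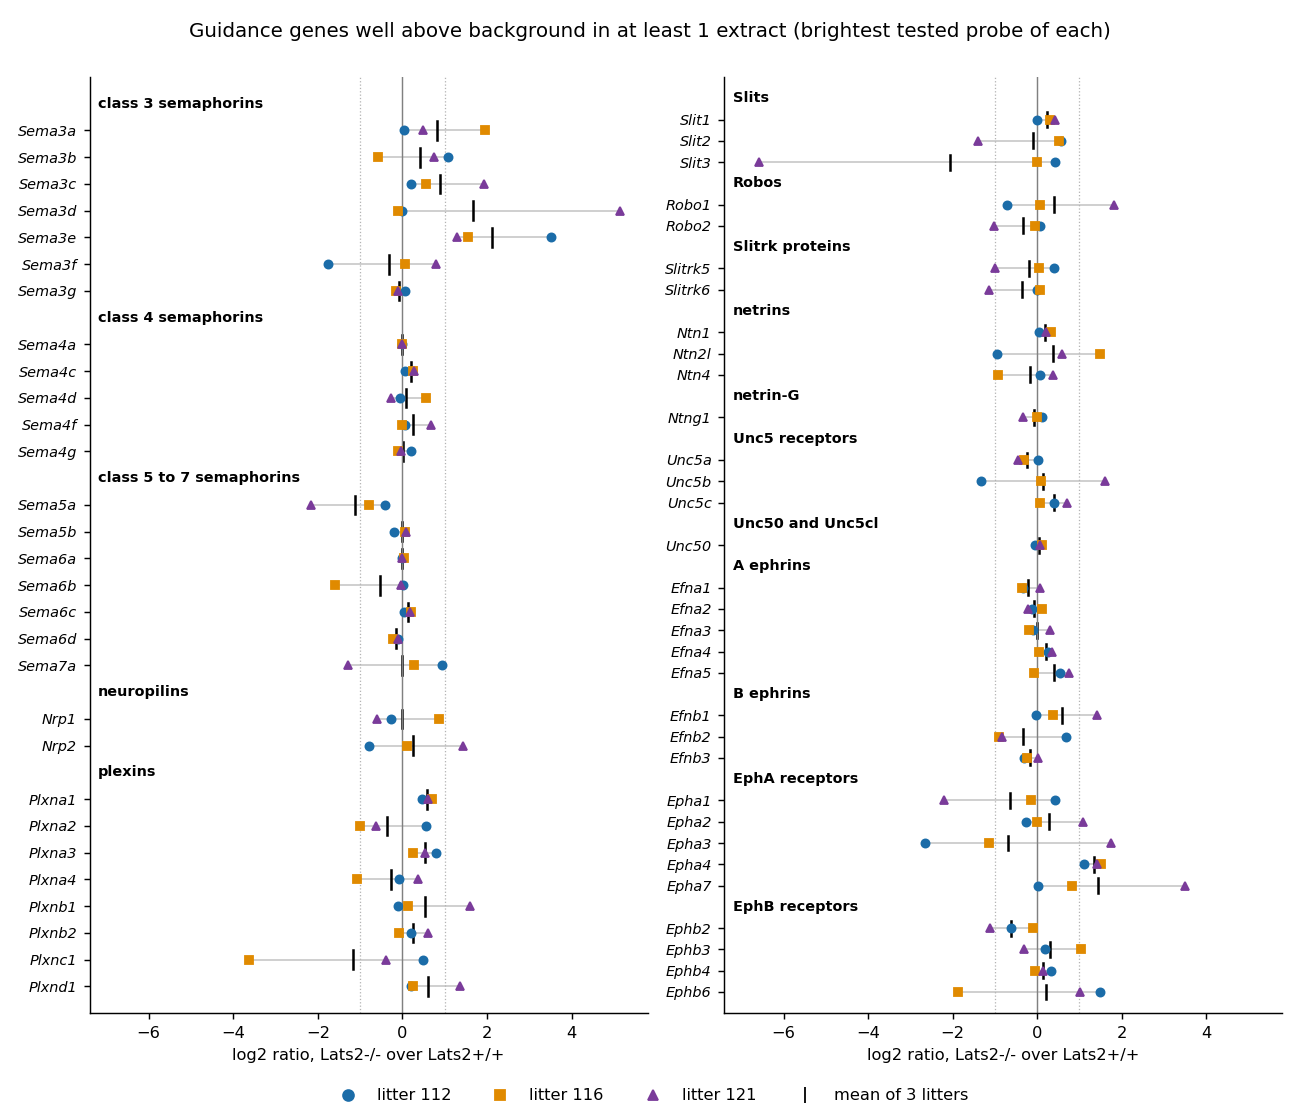
Log2 ratios (horizontal axis) of Lats2-/- over Lats2+/+ cells in litters 112, 116 and 121 for each of the 61 tested guidance genes, by family; the grey line spans the 3 litters, the black bar is their mean and dotted lines mark a 2-fold difference. Epha4 and Sema3e lie past the 2-fold line in every litter, while Slit3, Sema3d, Plxnc1 and Epha7 have 1 litter far from the others.

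The spread between litters was wide for these genes. The median SD of the 3 litter ratios was 0.67 on the log2 scale for the 61 guidance genes and 0.26 for all tested genes. Litter 121 stood apart most. There, 14 of the 61 guidance genes were at least 2-fold higher, where the share of all tested genes was 4.38%. Another 8 were at least 2-fold lower, where that share was 3%. In litter 116 these counts were 5 higher (share of all tested genes 5.09%) and 6 lower (3.55%). In litter 112 they were 4 higher (share 2.83%) and 3 lower (1.32%). Thus 36.1% of the guidance genes differed at least 2-fold in litter 121, beside 7.39% of all tested genes. Of these 22 genes, Plxnb1, Robo2 and Slitrk6 passed the filter only through the extract of litter 121 where they were high. Among genes whose brightest probe was above background in all 6 extracts, a choice made after seeing the data, 13 of 35 guidance genes (37.1%) differed at least 2-fold in that litter, beside 6.02% of all such genes. The fibroblast markers Pdgfra, Thy1 and Col3a1 were also low in Lats2-/- cells of that litter, with values given beside Slit3, and their part in these counts was not tested. The 14 higher genes of litter 121 were Efnb1, Epha2, Epha3, Epha4, Epha7, Ephb6, Nrp2, Plxnb1, Plxnd1, Robo1, Sema3c, Sema3d, Sema3e and Unc5b. The 8 lower ones were Epha1, Ephb2, Robo2, Sema5a, Sema7a, Slit2, Slit3 and Slitrk6.

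**Figure D2:**
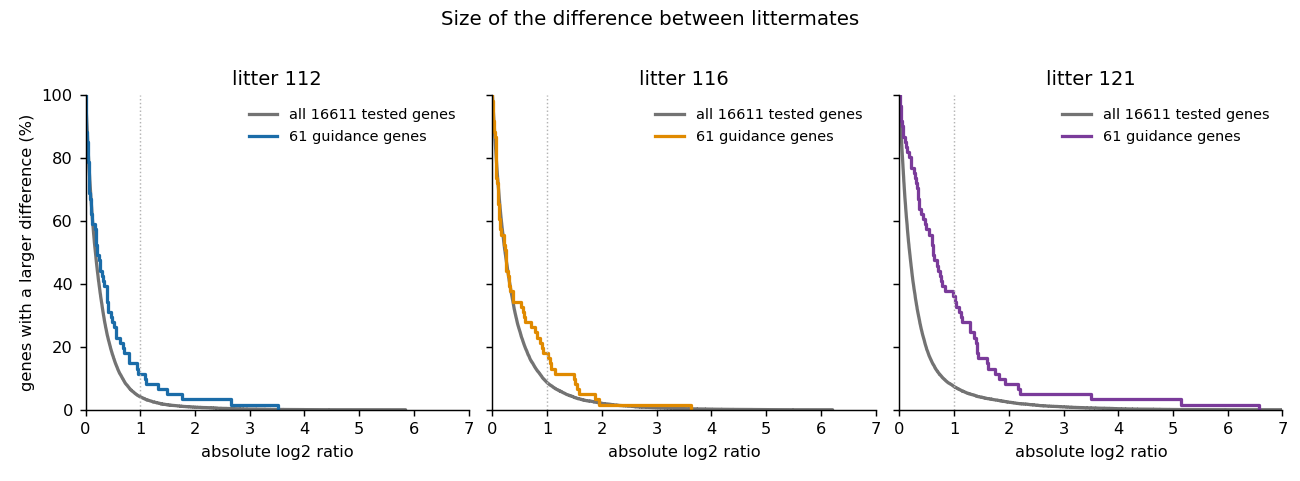
Share of genes (vertical axis, %) whose absolute log2 ratio between littermates exceeds the value on the horizontal axis, in each litter, for the 61 guidance genes (colour) and all 16611 tested genes (grey, guidance genes included); the dotted line marks a 2-fold difference. At that line the guidance genes of litters 121, 116 and 112 stand at 36.1%, 18% and 11.5%, and all tested genes at 7.39%, 8.64% and 4.15%.

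Ratios of the litters were weakly related over the guidance genes and over all tested genes. Across the 61 genes, which are not independent replicates, Pearson's r between litters was 0.10 for 112 and 116, -0.11 for 112 and 121, and 0.13 for 116 and 121, beside 0.131, 0.0503 and -0.0136 over all tested genes. Spearman's rho over the 61 genes was 0.0296, -0.152 and 0.249, while arrays of the same 2 extracts had r between 0.956 and 0.999. Only 18 of the 61 genes (29.5%) had ratios of 1 sign in all 3 litters, beside 29.4% of all tested genes. At least 2-fold differences in the same direction in 2 or more litters were seen for 5 of the 97 guidance probes, where the share of all tested probes was 1.94%. These were probes of Epha3, Epha4, Sema3e and Ephb6. In opposite directions they were seen for 5 probes, where that share was 1.68%. The Epha3 and Ephb6 probes of the first count are also in the second, beside another Epha3 probe and probes of Sema3f and Unc5b.

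The largest mean increase of the 61 genes was that of a secreted class 3 semaphorin. Sema3e, a ligand that can bind plexin-D1 without a neuropilin and repels growing vessels, was followed by 4 probes on chromosome 5 of mm8. With the brightest (A_51_P483438, 14260029 to 14260088), the log2 signals of litters 112, 116 and 121 were 10.04, 7.62 and 9.38 in Lats2-/- cells, against 6.53, 6.07 and 8.09 in their Lats2+/+ littermates, the order of litters kept throughout. Each Lats2-/- extract was thus above its littermate, though the groups overlapped, since the Lats2-/- extract of litter 116 was below the Lats2+/+ extract of litter 121. The ratios of 3.51, 1.55 and 1.29 averaged 2.12 ± 1.22 (SD over 3 litters), or 4.34-fold (limma p 0.0178, or 0.755 after adjustment). In litter 116 the Lats2+/+ extract was not well above background, and the difference there was at least 2.93-fold. Another probe (A_52_P439407, 14262437 to 14262496) had ratios of 2.64, 0.95 and 1.14, with p of 0.0199, and a dim one (A_52_P91152, 14238206 to 14239672) had 1.36, 0.36 and 0.53, with p of 0.0407. The Lats2+/+ extract of litter 116 was not well above background with either, nor that of litter 112 with the dim one, and with the former that of litter 112 was so on 1 of 2 arrays. Thus the differences were at least 1.93-fold with the former in litter 116, and at least 2.56-fold and 1.28-fold with the dim one in litters 112 and 116. The last Sema3e probe was not well above background in any extract. The mean of the brightest probe lay between 1.42, without litter 112, and 4.08, with the deposited value table, over 13 other settings, and its p passed 0.05 in 12 of them. The exception was the methods' t-test, with p of 0.0945.

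The promoters of genes with a probe at an unadjusted p under 0.05 are shown for their base composition, since the study was concerned with the Polycomb complex PRC2, whose targets are known to be rich in CpG. Each line gives the 250 bases before a start site in the RefSeq annotation of GRCm38.p6, 5′ to 3′ on the strand of the gene, with CG dinucleotides in capitals. The table of promoters held 66 of the 76 genes, and Plxna1 was not among them. Shown are Sema3e at chr5:14025026-14025275 on the plus strand, Epha4 at chr1:77515089-77515338 on the minus strand, Plxna3 at chrX:74328816-74329065 on the plus strand and Sema5a at chr15:32244563-32244812 on the plus strand.
Sema3e: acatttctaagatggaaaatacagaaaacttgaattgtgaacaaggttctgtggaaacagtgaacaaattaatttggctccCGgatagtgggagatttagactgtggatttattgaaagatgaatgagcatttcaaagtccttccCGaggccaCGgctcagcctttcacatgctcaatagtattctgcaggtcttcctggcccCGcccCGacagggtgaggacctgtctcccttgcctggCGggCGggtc
Epha4: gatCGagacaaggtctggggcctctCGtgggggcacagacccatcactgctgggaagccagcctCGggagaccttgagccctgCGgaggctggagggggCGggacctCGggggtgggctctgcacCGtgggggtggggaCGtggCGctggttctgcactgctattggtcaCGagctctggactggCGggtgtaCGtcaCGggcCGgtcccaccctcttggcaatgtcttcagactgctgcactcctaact
Plxna3: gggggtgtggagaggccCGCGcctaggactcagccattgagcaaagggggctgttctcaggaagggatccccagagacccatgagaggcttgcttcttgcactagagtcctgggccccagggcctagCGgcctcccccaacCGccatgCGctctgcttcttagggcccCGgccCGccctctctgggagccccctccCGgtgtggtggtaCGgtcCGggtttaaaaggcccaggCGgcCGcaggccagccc
Sema5a: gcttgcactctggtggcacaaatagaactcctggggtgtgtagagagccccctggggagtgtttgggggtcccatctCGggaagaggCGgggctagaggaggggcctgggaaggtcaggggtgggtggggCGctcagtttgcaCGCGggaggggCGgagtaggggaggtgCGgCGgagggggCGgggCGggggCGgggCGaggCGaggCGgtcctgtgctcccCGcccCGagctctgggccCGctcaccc
The window of Sema3e held 7 CG dinucleotides and was 48% G and C, the window of Epha4 held 14 and was 66% G and C, that of Plxna3 held 12 and was 68%, and that of Sema5a held 17 and was 72%. Over the 83 windows of guidance genes the medians were 15 CG dinucleotides and 64% G and C, beside 6 and 52.4% over all 32851 windows of the table, which include noncoding genes. The 6 letters GGAATG, the core of the TEAD motif, were searched on both strands (CATTCC on the other) and lay in 0 of the 4 windows shown, in 10 of the 83 windows of guidance genes (12%) and in 12.6% of all windows. These are matches of letters and say nothing on binding.

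No other class 3 semaphorin passed an unadjusted p of 0.05. Sema3d had log2 signals of 6.07, 6.00 and 12.26 in Lats2-/- extracts and 6.09, 6.10 and 7.11 in Lats2+/+ extracts. It was not well above background in either extract of litters 112 and 116, so that its ratio of 5.14 in litter 121 alone carried the mean of 1.67 ± 3.00 (SD over 3 litters, adjusted p of 0.822). Sema3f, a ligand that acts through neuropilin-2, had ratios of -1.65, -0.61 and 1.37 with one probe (A_52_P498231) and -1.77, 0.06 and 0.79 with the brighter one (A_51_P389814). Both were lower in litter 112 and higher in litter 121, and no direction was shared (p of 0.676 and 0.615). Sema3a, the repellent that collapses sensory growth cones and the brightest of this class, had ratios above 0 in every litter, of 0.04, 1.95 and 0.49, and averaged 0.83 ± 0.997 (SD over 3 litters, with an adjusted p of 0.797 in limma), and its next probe (A_52_P527748) had 0.35, 1.61 and 0.52, with p of 0.0574.

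Of the membrane semaphorins, Sema5a, a transmembrane protein with thrombospondin repeats, had ratios below 0 in every litter. Its brighter probe (A_52_P409076, chromosome 15, 32640693 to 32640752 of mm8) had log2 signals of 8.65, 10.01 and 7.04 in Lats2-/- extracts and 9.05, 10.79 and 9.20 in Lats2+/+ extracts. Every Lats2-/- extract was below its littermate, with overlap between the groups, and the ratios were -0.40, -0.78 and -2.16. The mean of -1.11 ± 0.93 (SD over 3 litters) missed the threshold (p of 0.0546, adjusted p of 0.755). The dimmer probe (A_52_P465022, 32633956 to 32634015) had ratios of -0.20, -0.34 and -0.65, and its mean of -0.40 ± 0.23 (SD over 3 litters) passed it (p of 0.0424, adjusted p of 0.755), with the Lats2-/- extract of litter 121 above background on 1 of its 4 arrays. Each probe was negative in all its other settings and passed a p of 0.05 in 5 of them. The mean of the brighter probe became -0.59 without litter 121. The dimmer probe lost its p under 0.05 without any 1 litter, with limma p of 0.0646, 0.1048 and 0.1425 without litters 112, 116 and 121. Sema7a, a GPI-anchored semaphorin and the brightest of classes 5 to 7, had ratios of 0.95, 0.28 and -1.29, and Sema4d, the brightest of class 4 and a ligand of plexin-B1, had -0.06, 0.57 and -0.27. Neither had a shared direction.

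The plexins Plxna1 and Plxna3 were higher in each litter. Both encode receptors that carry signals of class 3 semaphorins bound to neuropilins. Plxna1 (A_52_P480141, chromosome 6, 89282175 to 89282234 of mm8) had log2 signals of 11.32, 10.83 and 12.23 in Lats2-/- and 10.85, 10.13 and 11.62 in Lats2+/+ extracts. The ratios of 0.47, 0.70 and 0.62 averaged 0.59 ± 0.12 (SD over 3 litters), or 1.51-fold (limma p 0.00503, or 0.755 after adjustment). A dimmer Plxna1 probe (A_51_P501922) had ratios of -0.0032, 0.12 and 0.01, so that the probes disagreed. Plxna3 (A_52_P539632, chromosome X, 70597304 to 70597363) had ratios of 0.80, 0.25 and 0.54 and averaged 0.53 ± 0.27 (SD over 3 litters), or 1.45-fold (limma p 0.0243, or 0.755 after adjustment). Its p passed 0.05 in 8 of 14 other settings, and not without litter 112 (0.0970) or litter 121 (0.0882). Its second probe (A_51_P477641) was dimmer and had ratios of 0.23, 0.18 and 0.24, with p of 0.0712. The groups overlapped for both genes, because litters differed from each other by more than littermates did.

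Plxnc1, a receptor of Sema7a, differed in litter 116 with both of its probes. The brighter one (A_52_P507498) had log2 signals of 6.73, 6.53 and 6.14 in Lats2-/- extracts and 6.25, 10.15 and 6.53 in Lats2+/+ extracts. The Lats2+/+ extract of litter 112 and the Lats2-/- extract of litter 121 were not well above background, so that those differences were at least 1.39-fold and 1.32-fold. The Lats2+/+ extract of litter 116 was the one that stood out, the ratios were 0.48, -3.62 and -0.40, and the mean of -1.18 ± 2.16 (SD over 3 litters, adjusted p of 0.825) became 0.041 without that litter. The other Plxnc1 probe was above background in that Lats2+/+ extract alone, where it was at least 2.59-fold higher. The brightest plexin, Plxnb2, had ratios of 0.21, -0.07 and 0.60. Plxnd1, the receptor of Sema3e, falls outside the rule for named genes and was looked up after its values were seen: its ratios were 0.20, 0.26 and 1.36, and averaged 0.60 ± 0.65 (SD over 3 litters, with an adjusted p of 0.785 in limma). Of the neuropilins, Nrp2 was the brighter, with ratios of -0.80, 0.11 and 1.43.

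**Figure D3:**
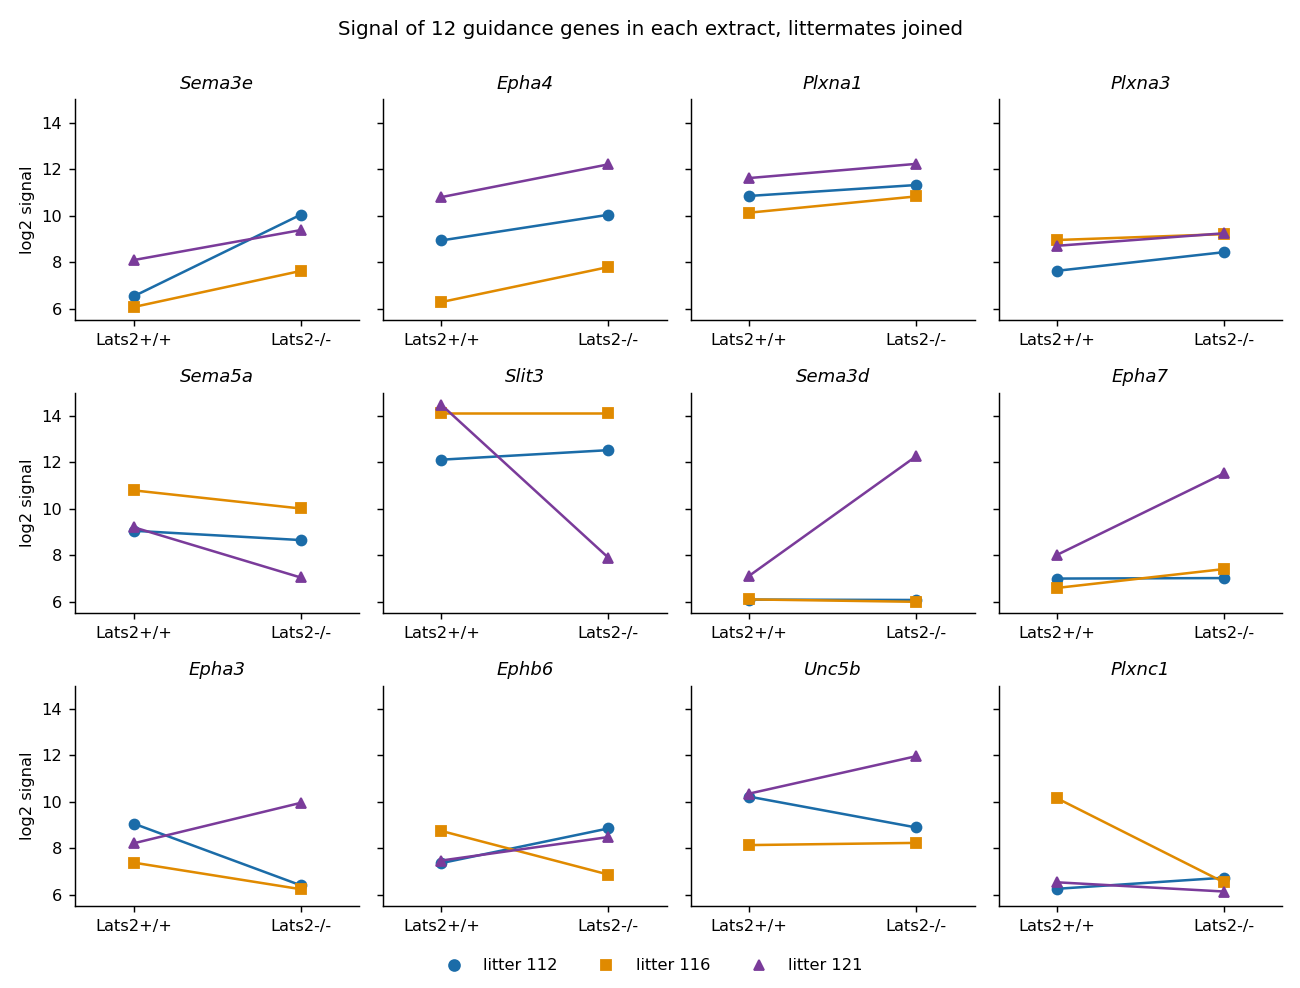
Log2 signal (vertical axis) of 12 guidance genes in the Lats2+/+ and Lats2-/- extract of each litter, with littermates joined by a line. In the first row the 3 lines rise together, as for Epha4 with ratios of 1.11, 1.51 and 1.42; Slit3 and Sema3d change by over 2-fold in litter 121 alone, and Epha3, Ephb6 and Unc5b have lines that run in opposite directions.

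Slit3, a secreted ligand of Robo receptors that fibroblasts are known to make, had the largest difference of any guidance gene in 1 litter. Its brighter probe (A_51_P355765, chromosome 11, 35555291 to 35555350 of mm8) had log2 signals of 12.52, 14.14 and 7.89 in Lats2-/- and 12.11, 14.14 and 14.47 in Lats2+/+ extracts. All extracts but the Lats2-/- extract of litter 121 were bright, and the ratios were 0.42, 0.00 and -6.58. The second probe (A_51_P301809, 35551480 to 35551539) had ratios of 0.05, 0.21 and -3.69. The means of -2.05 ± 3.92 and -1.14 ± 2.21 (SD over 3 litters, adjusted p of 0.828 and 0.830) became 0.21 and 0.13 without litter 121. Slit2, which binds Robo1 and Robo2, was lower in the same litter, with ratios of 0.56, 0.51 and -1.41 by its brightest probe. Robo1, the brightest Robo, ran the other way, with ratios of -0.71, 0.07 and 1.83, and in litter 116 neither of its extracts was well above background. The fibroblast markers Pdgfra, Thy1 and Col3a1 were also low in Lats2-/- cells of litter 121. The ratios of Thy1 and Col3a1 were -3.66 and -3.42 there but 2.05 and 3.696 in litter 116, where that of Slit3 was 0.00, and Pdgfra, with a log2 signal of 6.30 in Lats2-/- cells of litter 121 against 11.26 in the littermate, was above background there on 2 of 4 arrays, while the other 6 of the 9 lay between -1.14 and 0.67 in litter 121. The part that this played in the Slit3 value was not tested, and fewer cells of a type cannot be told apart from less RNA per cell in such bulk extracts.

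No netrin or Unc5 receptor passed an unadjusted p of 0.05. Unc5b, an Unc5 receptor also known from vessels, had log2 signals of 8.89, 8.23 and 11.96 in Lats2-/- and 10.22, 8.13 and 10.35 in Lats2+/+ extracts. Its ratios of -1.32, 0.09 and 1.62 pointed in opposite ways in litters 112 and 121, and the mean was 0.13 ± 1.47 (SD over 3 litters, adjusted p of 0.979). The brightest netrin was the gene listed as Ntn2l, now Ntn3, with ratios of -0.96, 1.49 and 0.59. Ntn1 was dim, with ratios of 0.04, 0.32 and 0.20, and of the netrin-G probes only 1, for Ntng1, was tested, with ratios of 0.10, -0.0038 and -0.34. Unc50, which shares the name but is no guidance receptor, had ratios of -0.05, 0.11 and 0.07. Slitrk5, the brighter of the tested Slitrk genes, had 0.40, 0.03 and -0.99.

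Among Eph receptors, Epha4 alone passed an unadjusted p of 0.05, with both of its probes. EPHA4 is a receptor tyrosine kinase that binds both A and B ephrins. With its brighter probe (A_52_P288177, chromosome 1, 77251261 to 77251320 of mm8), the log2 signals were 10.04, 7.79 and 12.21 in Lats2-/- extracts and 8.94, 6.29 and 10.80 in Lats2+/+ extracts. Each Lats2-/- extract was above its littermate, and because litters differed by more than genotypes the groups overlapped. The ratios of 1.11, 1.51 and 1.42 averaged 1.34 ± 0.21 (SD over 3 litters), or 2.54-fold, with the smallest p of any guidance probe (limma p 0.000595, or 0.651 after adjustment). In litter 116 the Lats2+/+ extract was not well above background, and the difference there was at least 2.84-fold. The dimmer probe (A_51_P221762, 77252320 to 77252379) had ratios of 0.72, 0.19 and 1.19 and averaged 0.70 ± 0.50 (SD over 3 litters, limma p 0.0420, or 0.755 after adjustment), though in litter 116 it was above background on 1 of 2 arrays in Lats2-/- and on none in Lats2+/+ cells. The p of the dimmer probe passed 0.05 in 8 of 13 other settings. In limma it did not without litter 112 (0.1405) or litter 121 (0.1157), with no filter (0.0504) or with litters unpaired (0.4505). By the methods' t-test its p was 0.1374. The mean of the brighter probe was 2.33 with the deposited value table. In a fit that left the litters unpaired, the p of the brighter probe was 0.406, and that of Plxna1 was 0.280.

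Other Eph receptors moved by litter. Epha3 was lower in litters 112 and 116 and higher in litter 121 with its brightest probe (A_52_P276955), with log2 signals of 6.41, 6.24 and 9.95 in Lats2-/- and 9.06, 7.38 and 8.21 in Lats2+/+ extracts. In litter 116 the Lats2-/- extract was not well above background, and the gene was at least 2.18-fold lower there. The ratios were -2.66, -1.14 and 1.74, and those of a second probe (A_51_P246133) were -1.34, -0.27 and 1.24, with Lats2-/- not well above background in litters 112 and 116 (at least 2.36-fold and 1.20-fold lower). The means of -0.69 and -0.12 were smaller than the SDs of 2.23 and 1.29 (over 3 litters, adjusted p of 0.900 and 0.976), and became -1.99 and -1.75 with Agilent's processed signals. Epha7 had ratios of 0.02, 0.81 and 3.51 and averaged 1.45 ± 1.83 (SD over 3 litters, with an adjusted p of 0.798 in limma), with litter 121 holding most of the difference. Its other probe passed the filter only through its high value in Lats2-/- cells of litter 121, and is no second measure of it. Ephb6, an Eph receptor whose kinase is inactive, had ratios of 1.49, -1.88 and 1.01 and averaged 0.21 ± 1.82 (SD over 3 litters, with an adjusted p of 0.969 in limma). The brightest EphA and EphB receptors, Epha2 and Ephb3, had ratios of -0.26, -0.00497 and 1.08 and of 0.18, 1.04 and -0.32.

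Of the ephrins, the ligands of these receptors, none of the 10 tested probes passed an unadjusted p of 0.05 in limma. The means of the 5 A ephrin genes lay between -0.22 and 0.41, and those of the 3 B ephrin genes between -0.35 and 0.59. The brightest A ephrin, Efna5, had ratios of 0.53, -0.07 and 0.76. The brightest B ephrin, Efnb1, had -0.02, 0.38 and 1.42, with the difference of over 2-fold in litter 121.

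**Figure D4:**
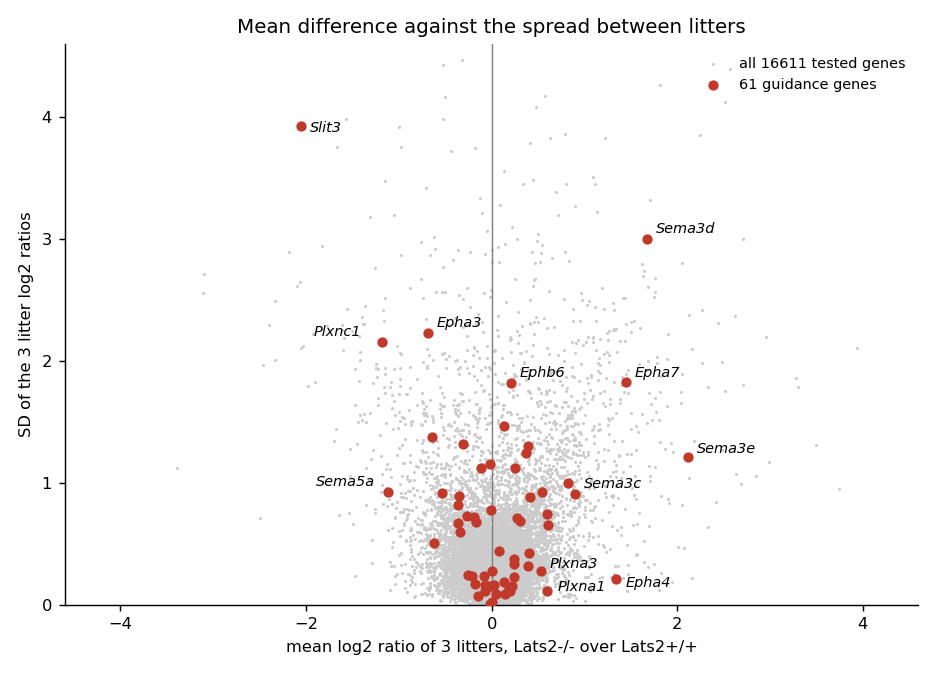
Mean log2 ratio of the 3 litters (horizontal axis) against the SD of the litter ratios (vertical axis) for the 61 guidance genes (red) and all 16611 tested genes (grey, of which 3 lie outside the axes). Epha4 (mean 1.34, SD 0.21) has a small SD for its mean, while Slit3 (mean -2.05, SD 3.92) and Sema3d (mean 1.67, SD 3.00) have an SD above the size of the mean.

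The remaining 34 tested genes, neither named by the rule nor the brightest of a family, had means between -0.64 (Epha1) and 0.90 (Sema3c), 15 above 0 and 19 below, and the lowest p was 0.0594, for Ephb2. Of the 61 tested genes, read by their brightest probes, 35 were above background in all 6 extracts and 6 in 1 extract alone. Those 6 were Plxnb1, Sema4f and Sema6a in a Lats2-/- extract and Ntng1, Robo2 and Slitrk6 in a Lats2+/+ extract. Sema6a differed little between genotypes with that probe, with log2 signals of 6.33 and 6.35 in litter 121, and another of its probes was above background in both extracts of that litter. The 15 genes with no tested probe were Epha5, Epha6, Epha8, Epha10, Ephb1, Ntng2, Plxnb3, Robo4, Sema4b, Slitrk1, Slitrk2, Slitrk3, Slitrk4, Unc5cl and Unc5d.

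Of 67 other genes of guidance signalling (co-receptors, adaptors, GTPase regulators and cytoskeletal effectors), 64 were tested by their brightest probe, and 5 were higher and 4 lower at an unadjusted p under 0.05, with the shares of all tested genes given above as 3.86% and 3.29%. Their median mean log2 ratio was 0.05, with 38 genes above 0 and 26 below. Cxcl12, the chemokine that steers cells through CXCR4, had ratios of 2.18, 0.61 and 1.54 (limma p 0.0160, or 0.755 after adjustment). Ablim1, an actin-binding LIM protein, had ratios of 1.22, 0.98 and 1.01 (limma p 0.000676, or 0.651 after adjustment). Limk2, a kinase of cofilin, had ratios of 0.31, 0.97 and 0.46, and Dpysl2, which encodes CRMP2, a mediator of semaphorin signals, had 0.41, 0.27 and 0.57. These 4 genes were higher in every litter, and so was Pak3, a kinase downstream of Rac, with a mean of 0.34 (p of 0.0467).

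The genes lower at that p were Rnd1, Tiam1, Ngef and Neo1. Rnd1, a small GTPase that binds plexins, had ratios of -0.60, -2.26 and -0.71 (limma p of 0.0449), though another of its probes had 0.06, -0.25 and -0.06. A dim Rnd1 probe (A_52_P947137) had -0.19, -0.27 and -0.17 (limma p of 0.0856), and was not well above background in any Lats2-/- extract. Tiam1, a Rac exchange factor, had -0.78, -1.68 and -0.36 (limma p of 0.0376). Ngef, the ephexin that acts beneath EPHA4, had -0.68, -1.35 and -0.31 (p of 0.0342). Neo1, which encodes the netrin and RGM receptor neogenin, had -1.12, -0.23 and -0.91 (p of 0.0278). Another Neo1 probe (A_52_P269003) had -0.53, -0.79 and -0.50 (limma p of 0.00629), and a dimmer one (A_52_P907073) -0.60, -0.08 and -0.52 (limma p of 0.0578). The dimmest (A_52_P253025) had -0.25, 0.01 and -0.15. None of these 9 genes passed the adjusted threshold. Dcc, Flrt1 and Nrcam were not well above background in any extract.

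Markers of the cells in which guidance genes are best known were low. Of 9 neuron markers, 2 to 4 were above background in an extract, and Snap25, Elavl3 and Syt1, read by their brightest probes, were in none. The summed neuron signal ranged from 1271 to 3197 in Lats2-/- and from 1855 to 4131 in Lats2+/+ extracts. Of the 6 tested neuron markers, 2 had a mean above 0 and 4 below, with a median mean log2 ratio of -0.19. Among them Stmn2, which binds tubulin, had ratios of 0.03, -0.02 and 3.76, so that it was high in litter 121 as Sema3d and Epha7 were. Of 8 endothelial markers, at most 2 were above background, and Pecam1, Cdh5, Tie1, Emcn, Cldn5 and Esam1 were in none, with sums of 544.8 to 602.8 and 547.1 to 565. Of 7 macrophage markers 2 to 4 were above background and of 6 epithelial ones at most 2, with Ptprc, Aif1, Emr1, Cldn4 and Tacstd1 in none. Their sums ranged from 835.2 to 3943 and from 416.6 to 843.7 in Lats2-/- extracts, and from 910.9 to 2324 and from 406.6 to 456.8 in Lats2+/+ extracts. Krt19, an epithelial keratin, was higher in every litter, with ratios of 2.42, 0.37 and 1.83 (limma p of 0.0307), and Cspg4, a mural cell marker, was lower, with -2.10, -4.14 and -3.94 (p of 0.00285). Of the other listed markers, Postn of fibroblasts was also higher at an unadjusted p under 0.05 and Cd14 of macrophages lower. By their means, 2 of the 4 tested epithelial markers were above 0 and 2 below. Of the 3 tested mural markers 2 were above 0 and 1, Cspg4, below. The ratios of Acta2 were -0.43, 3.16 and 0.49, and those of Myh11 -0.07, 0.07 and 0.02. Neither list thus moved in a single direction. The 5 mural markers summed to between 75610 and 151000 in Lats2-/- and between 13760 and 109500 in Lats2+/+ extracts, mostly from Acta2. The part of these cells in the guidance genes was not tested.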

How the data were processed

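Per the labels and file headers, 8 two-colour Agilent whole mouse genome arrays were scanned and read with Feature Extraction (version 10.5.1.1 in the labels, 10.7.3.1 in the headers), and the authors deposited spot intensities and, in a value table, log10 ratios. The value table equals the scanner log ratio turned to Lats2-/- over Lats2+/+ (within 0.005), and each of its columns has a median of 0. Probe positions are those of mm8 in the files, and exon positions were not analysed here. Intensities were corrected with normexp (offset 50) and loess in limma 3.58.1 (R 4.3.3), control spots were given weight 0 and 860 outlier gene spots left out, none of a guidance probe. Arrays were averaged within a litter, since they held the same 2 extracts, littermates were paired as they shared each array, and the 3 litter ratios were tested against 0 with lmFit and eBayes, with Benjamini-Hochberg adjustment over 25347 probes. Log2 signals of single extracts come from loess followed by Aquantile scaling, and a gene was read by its brightest tested probe, with no order of transcript levels between genes read from it. The number of litters limits the precision.

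Values in every litter are given for guidance probes with an unadjusted p under 0.05, a mean of at least 2-fold or 2-fold differences in 2 or more litters, and for the brightest gene of each family. Of 67 pathway genes, those with an unadjusted p under 0.05 were named, the 8 largest by rule and Pak3 in addition. Other genes were named after their values were seen. The guidance genes and lists were chosen with earlier results of these data known. Promoter windows came from the RefSeq table of GRCm38.p6. The fit was tested on simulated data.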

Additional observations from a re-analysis of the deposited data

How the results depend on the processing

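Beside 0 probes past the adjusted threshold in limma (1654 at an unadjusted p under 0.05), 709 passed with slide as a random block and 238 when a dye term was fitted with litter as a random block. Both fits took the 8 arrays as values, with an estimated correlation of 0.397 within slides and 0.943 within litters; every other setting gave 0. The slide block used the 8 arrays, chosen after seeing the data, because over 3 litter ratios it could not be fitted.

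The 8 guidance probes at an unadjusted p under 0.05 became 2 with no replicate block (litters unpaired), 4 when all 6 extracts had to exceed background, 4 by the methods' t-test, 17 with the dye term and 36 with the slide block. Leaving out 1 litter gave 9 to 13, with 13 when litter 116 was dropped. Of these probes 7 were higher and 1 lower, against 5 and 5 when litter 112 was dropped, 12 and 1 when litter 116 was, 6 and 3 when litter 121 was, and 24 and 12 with the slide block. The count that was also 2-fold, 3 higher and 0 lower, came to 9 with Agilent's processed signals, 9 with the authors' value table (7 higher and 2 lower in each), 1 under the filter on all 6 extracts, 1 by the methods' t-test, 5 with the dye term and 11 with the slide block. The 1 under that filter was a lower Sema5a probe, since the 3 probes for Sema3e and Epha4 were not tested there. Leaving out 1 litter gave 4 to 5, with 5 when litter 121 was dropped. The 9 pathway genes became 4 with no replicate block, 2 by the methods' t-test and 16 with the slide block, and 6 to 11 on leaving out 1 litter, with 6 when litter 112 was dropped. The median mean log2 ratio of guidance genes was 0.14 under the filter on all 6 extracts and 0.103 under that on 2 of 3, which test fewer genes, 0.0132 with median centring, 0.00507 with no filter, and 0.0323 to 0.094 on leaving out 1 litter, beside 0.0447. The cause of the other changes was not tested.

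Over the fits that left out 1 litter, means changed sign for Epha3 (-0.80 to 0.48 by A_51_P246133 and -1.90 to 0.30 by A_52_P276955), Ephb6 (-0.43 to 1.25, and -0.19 when litter 121 was dropped), Sema3f (-1.13 to 0.38), Plxnc1 (-2.01 to 0.041), Slit3 (-1.82 to 0.13 and -3.29 to 0.21), Unc5b (-0.61 to 0.85) and Sema3d (-0.061 to 2.56). With the slide block they did for Epha3 (0.22 by A_51_P246133) and Sema3f (0.12). The means of the probes at an unadjusted p under 0.05, and of the brighter Sema5a probe, changed sign in no setting run; the dimmer Plxna1 and Plxna3 probes were not rerun.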
